A study of Mus musculus with 16 samples.

Results

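The proteasome is the cell's main protease for proteins tagged with ubiquitin. Its barrel-shaped core particle is built of outer alpha rings, which gate the entrance, and inner beta rings, which carry the cutting sites. A regulatory particle caps the barrel. It has a base of ATPases that unfold substrates and a lid that removes the ubiquitin chain, and other activators can cap the barrel in its place. Immune signals exchange the cutting subunits for inducible forms, which makes the immunoproteasome. In heart muscle the system turns over sarcomere and other proteins.

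Described here are the genes of this family in the ventricles of 8-week-old mice. A gene was taken when its symbol begins Psma, Psmb, Psmc, Psmd, Psme, Psmf or Psmg followed by a digit, pseudogenes left out, which gave 50 of the 54108 genes with a symbol in the count table. Psmb8, Psmb9 and Psmb10, the 3 immunoproteasome subunits, were set apart. The knockout (cKO) mice were Myh6-Cre, Rbpms fl/fl, and the controls were Rbpms fl/fl without Cre, so that both groups carried the floxed alleles of Rbpms, an RNA-binding protein gene. The Myh6 promoter drives Cre in heart muscle cells, while the ventricle also holds other cells in which Rbpms is kept. Each genotype had 4 libraries of messenger RNA, 3 from males and 1 from a female, which is library 3 in both. Libraries of newborn (P1) mice were not used.

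The libraries held 20190334 to 24540433 counts. Values below are CPM, a gene's counts relative to the library's total, scaled by TMM, and means carry the SD over 4 libraries. Tests are edgeR's quasi-likelihood test on the counts, and a gene is said to have risen or fallen where its p, adjusted by Benjamini-Hochberg over all 16051 genes tested, was under 0.05. Whether tissue was pooled is not stated in the labels, and the p-values cover only the spread between libraries. Rbpms had 38.8, 34.5, 27.1 and 26.9 CPM in cKO libraries 1 to 4, against 191, 154, 193 and 102 CPM in control libraries 1 to 4, and fell (log2 fold change -2.33 ± 0.20 SE, adjusted p = 3.54e-05). Cardiomyocyte markers had a summed level of 27739.5 to 33302 CPM in cKO and 32906 to 42778 CPM in control libraries. Of these 8 markers 2 fell, Ryr2 (log2 fold change -0.68) and Tnni3 (-0.47), or 25% called against 19.3% of all genes tested. All 8 had negative log2 fold changes, with a median of -0.21. DESeq2 called Myh6 (-0.34 by edgeR) besides, and limma-voom did not. All 6 fibroblast markers rose, beside 9.64% higher over all genes. Their log2 fold changes ran from 0.83 (Pdgfra) and 0.89 (Dcn) to 1.31 (Lum), with a median of 1.25. Their summed level was 3277 to 4402 CPM in cKO and 1330.3 to 1962 CPM in control libraries. Of the 6, Col3a1 lost its call without cKO library 1 (adjusted p = 0.0552) or cKO library 4 (0.0543). Of 6 endothelial markers 0 passed by edgeR, DESeq2 or limma-voom, with Emcn at 0.22 and Kdr at -0.19. Of these 6, 0 had an unadjusted p under 0.05 by edgeR, against 31.5% of all genes tested. In bulk tissue, fewer cells of a type and less RNA per cell cannot be told apart, and the part of this shift in the values below was not tested.

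Most of the proteasome was at nearly the same level in both genotypes. Of the 50 genes 49 were tested, and Psmb11 was too low. One activator subunit gene fell, Psme1, and 1 lid subunit gene rose, Psmd8, and these 2 genes are 4.08% of those tested. Over all genes tested, 9.64% were called higher and 9.64% lower, 19.3% together, with 1992 higher and 1021 lower in place of 1548 and 1547 when total counts were the only scaling. DESeq2 called Psma5, Psmg1 and Psme3 besides, and limma-voom called Psme1 and Psmd8 alone. The median log2 fold change of the 49 genes was 0.0019, beside 0.0053 for all genes tested. It moved to -0.0276 without control library 1, to 0.0783 without control library 4 and to 0.0903 with total counts only, beside 0.00634, -0.000361 and 0.0880 for all genes. Changes past 1.5-fold in either direction were found for 2 of the 49 (Psme1 and the scarce Psma8) and for 16.5% of all genes. The median standard error of the log2 fold change was 0.0907 for the 49 and 0.135 for all genes. Its part in these 2 shares was not tested. The groups did not overlap for 8 of the 49, or 16.3%, against 23.5% of all genes. An unadjusted p under 0.05 by edgeR was found for 11 of the 49, or 22.4%, against 31.5% of all genes. That share of all genes is the one to set beside such counts below. For counts of genes called by edgeR in either direction it is 19.3%. Among the 47 members that did not pass, 38 had a 95% interval of the fold change (from edgeR's standard error and a t quantile) that lay inside 1.5-fold on both sides. The 9 with wider intervals were Psma5, Psma8, Psmb8, Psmb9, Psmg3, Psmg4, Psme3, Psmc3ip and Psme2b. Summed over all 50 genes, the level was 4105 to 4229 CPM in cKO and 3868 to 4621 CPM in control libraries.

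**Figure D1:**
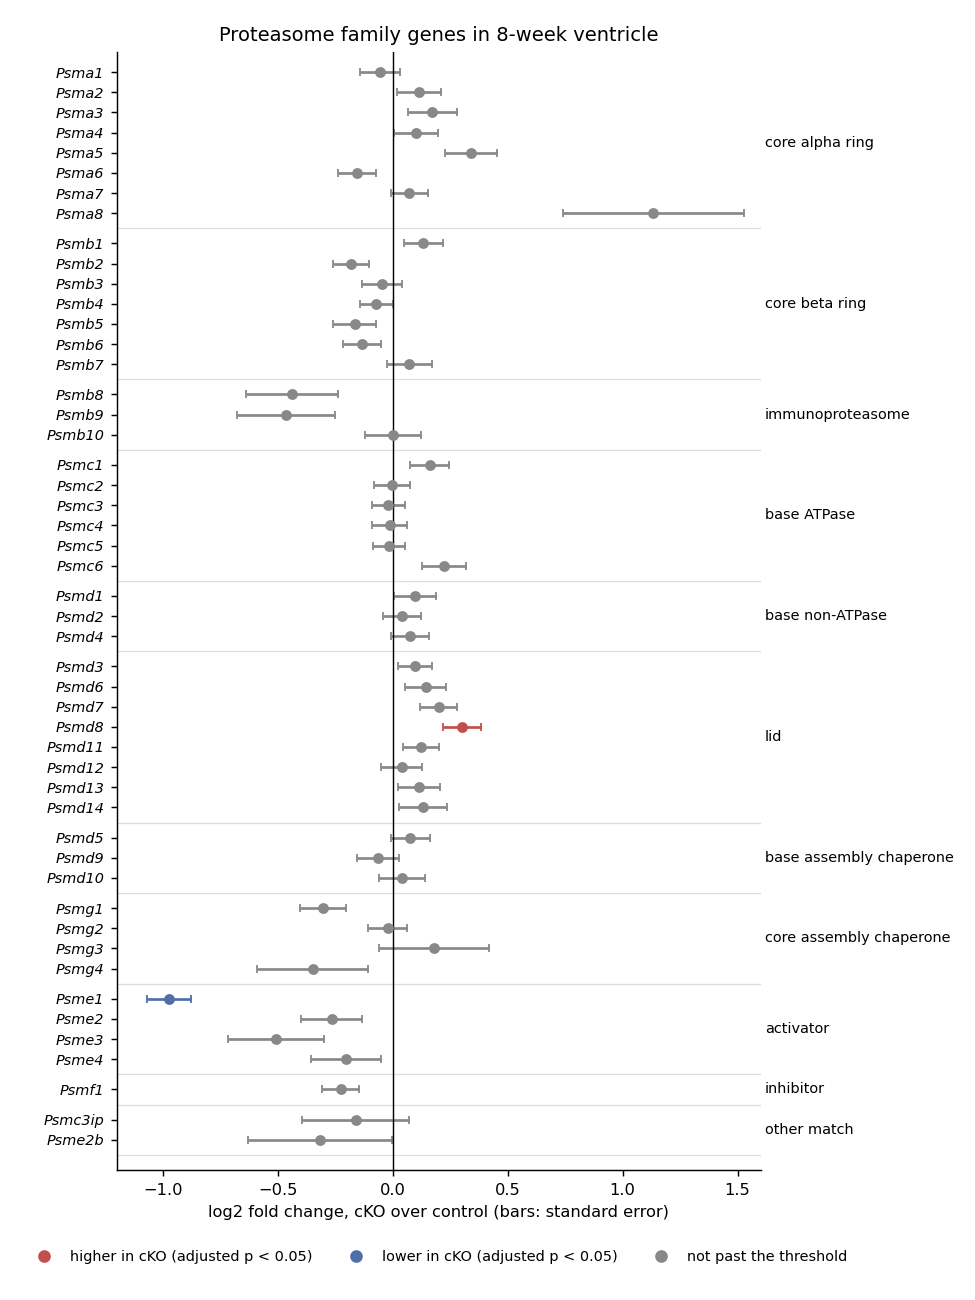
Log2 fold change (cKO over control, x axis) of each of the 49 tested genes, grouped by role, with the standard error as bars. Psme1 lies far to the left at -0.97, Psmd8 is the coloured point to the right at 0.30, and most subunits of the core and regulatory particles lie close to 0.

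To show the called genes beside the neighbour that did not pass, the RefSeq promoters of Psme1, Psme2 and Psmd8 are printed here (build GRCm38.p6, 250 bases before to 50 after the annotated start, on the gene's own strand). Of the 50 genes 42 have an entry, and Psme2 has 2, of which the one nearer to the GENCODE start is shown. Capitals mark matches to any of 3 motifs searched on both strands, which do not overlap in these windows. The motifs were TGACNNNGC, the core of the antioxidant response element, CCAAT, and the core of the interferon-stimulated response element, which is GAAA followed by NN and again GAAA.
Psme1, chr14:55578244-55578543, plus strand: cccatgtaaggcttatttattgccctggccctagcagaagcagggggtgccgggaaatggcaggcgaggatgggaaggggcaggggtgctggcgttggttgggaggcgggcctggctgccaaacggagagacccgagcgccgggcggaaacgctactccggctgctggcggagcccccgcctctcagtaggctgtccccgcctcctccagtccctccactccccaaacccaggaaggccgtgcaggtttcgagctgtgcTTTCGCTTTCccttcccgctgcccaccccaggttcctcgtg
Psme2, chr14:55591052-55591351, minus strand: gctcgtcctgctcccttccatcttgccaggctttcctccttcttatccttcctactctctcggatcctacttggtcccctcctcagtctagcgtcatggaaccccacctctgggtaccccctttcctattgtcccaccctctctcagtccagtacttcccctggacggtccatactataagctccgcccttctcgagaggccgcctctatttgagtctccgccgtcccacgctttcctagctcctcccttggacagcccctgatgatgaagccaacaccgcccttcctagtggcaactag
Psmd8, chr7:29180624-29180923, minus strand: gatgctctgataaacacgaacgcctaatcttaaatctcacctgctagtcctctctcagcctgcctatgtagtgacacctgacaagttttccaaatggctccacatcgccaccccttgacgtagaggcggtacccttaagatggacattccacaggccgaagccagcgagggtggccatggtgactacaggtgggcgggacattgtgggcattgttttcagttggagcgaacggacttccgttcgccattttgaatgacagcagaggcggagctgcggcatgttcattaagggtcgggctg

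The Psme1 window holds 1 match, to the interferon element on the minus strand, which begins 9 bases after the start. The Psme2 and Psmd8 windows hold none of the 3 motifs, which says only that these letters are not in these windows. The RefSeq start of Psme1 lies inside the GENCODE gene model, which begins further upstream. Across the family, the core of the interferon element was found for 5 of 42 genes, or 11.9%, against 3.99% of all genes with an entry. The 5 were Psmb3, Psmd4, Psmd9, Psme1 and Psmg4. TGACNNNGC was found for 6 of 42 (14.3%, against 14% of all genes) and CCAAT for 15 of 42 (35.7%, against 41.1%). A match is a description of the sequence and not a binding site.

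Among the activators, Psme1 was nearly 2-fold lower in cKO ventricles while its partner Psme2 did not pass. Psme1 and Psme2 encode the alpha and beta subunits of the interferon-inducible activator ring, which opens the core without ATP. Psme1 (chromosome 14, 55578123 to 55581529 in GRCm38, plus strand) had 58.2, 57.2, 51.8 and 67.4 CPM in cKO libraries 1 to 4, against 119, 117, 103 and 123 CPM in control libraries 1 to 4. Every cKO library was below every control library. The mean was 58.6 ± 6.46 CPM in cKO and 115 ± 8.72 CPM in control ventricles (SD, n = 4 each), which is 1.96-fold lower (log2 fold change -0.97 ± 0.09 SE, adjusted p = 6.74e-05). The gene passed under all 16 alternatives, and leaving out any 1 library gave log2 fold changes of -1.05 to -0.92.

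Psme2 had 18.9, 18.5, 23.03 and 27.04 CPM in cKO libraries 1 to 4, against 22.2, 29.6, 25.6 and 27.9 CPM in control libraries 1 to 4. These values overlap, with cKO libraries 1 and 2 the lowest of all and cKO libraries 3 and 4 among the controls (log2 fold change -0.27 ± 0.13 SE, adjusted p = 0.198). Within a library, the ratio of Psme1 to Psme2 (CPM per kb of exon) was 2.46, 2.47, 1.80 and 1.99 in cKO and 4.26, 3.15, 3.20 and 3.51 in control libraries, and the groups did not overlap. On the log2 scale the mean ratio was 1.11 ± 0.23 in cKO and 1.81 ± 0.20 in control libraries (SD, n = 4 each). This pair was set side by side after its values were seen, and the ratio was not tested.

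Psme3 encodes the gamma activator, a nuclear ring that acts without ATP or ubiquitin. It had 46.6, 43.7, 89.3 and 84.4 CPM in cKO libraries 1 to 4, against 93.9, 86.6, 92.6 and 102 CPM in control libraries 1 to 4. The cKO libraries fell into a low pair, 1 and 2, and a pair near the controls, 3 and 4, so that the SD in cKO was 24.2 CPM, against 6.49 CPM in control. With this spread the gene did not pass (log2 fold change -0.51 ± 0.21 SE, adjusted p = 0.115; interval of the fold 0.514 to 0.963). It passed without cKO library 3 (log2 fold change -0.69, adjusted p = 0.0358), in males only (0.0415), with DESeq2 (0.0481) and with no filter on low counts (0.00277). It did not pass under the other 12 alternatives, among them those without cKO library 1 (log2 fold change -0.38, adjusted p = 0.266) and without cKO library 2 (-0.35, adjusted p = 0.24). Of 9 other tested genes within 100 kb of its start, 0 were called by edgeR in either direction, against 19.3% of all genes. Of the 9, 1 had an unadjusted p under 0.05, while DESeq2 called 0. Becn1, the autophagy gene next upstream, had 47.4, 51.6, 51.6 and 45.7 CPM in cKO libraries 1 to 4, which did not divide into pairs as for Psme3.

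Psme4 encodes a large single-chain activator. It had 742, 731, 539 and 524 CPM in cKO libraries 1 to 4, against 635, 818, 596 and 869 CPM in control libraries 1 to 4. The groups overlap, and the spread within each genotype was wide (log2 fold change -0.20 ± 0.15 SE, adjusted p = 0.404). Here cKO libraries 1 and 2 were the higher pair. Psmf1 encodes an inhibitor of the core and had 24.5, 27.2, 26.2 and 22.4 CPM in cKO libraries 1 to 4, against 28.9, 29.5, 29.6 and 29.5 CPM in control libraries 1 to 4. All 4 cKO libraries were below all 4 controls, which lay within 1 CPM of each other, yet the gene did not pass (log2 fold change -0.23 ± 0.08 SE, adjusted p = 0.0763).

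**Figure D2:**
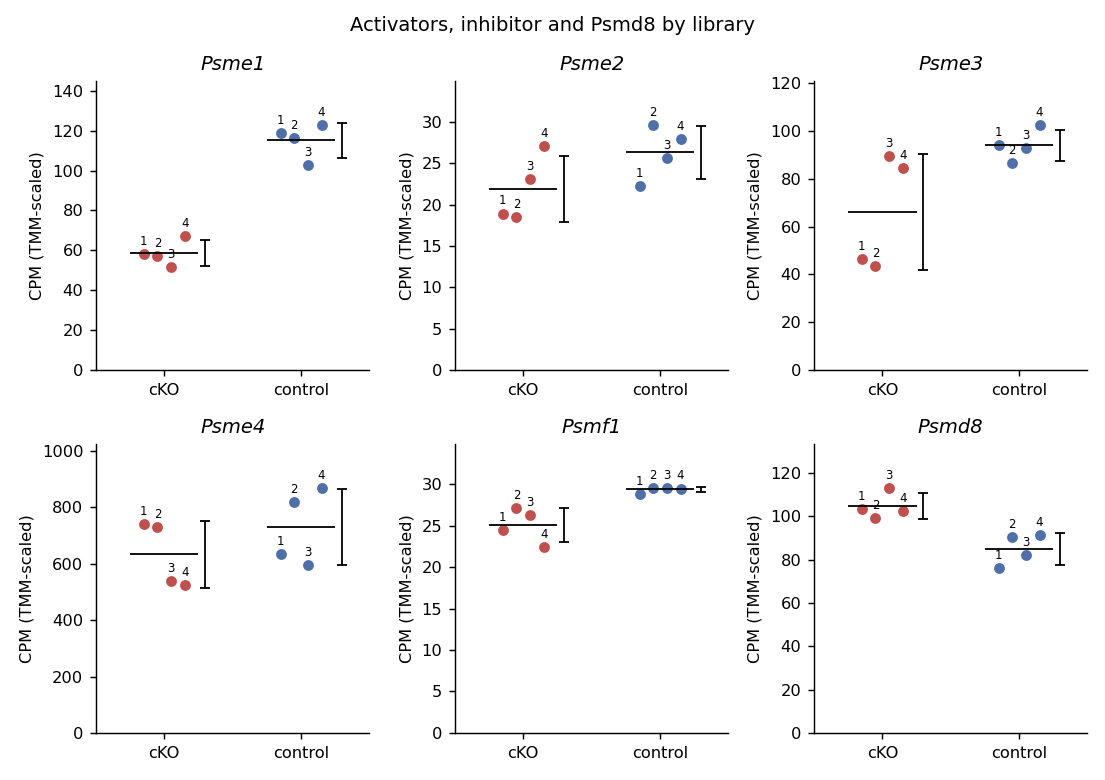
CPM (y axis, TMM-scaled) of the 4 activator genes, the inhibitor Psmf1 and the lid gene Psmd8 in each of 4 cKO (red, left) and 4 control (blue, right) libraries, numbered 1 to 4. Horizontal lines are means and bars the SD. Psme1, Psmf1 and Psmd8 separate the genotypes, and the cKO libraries of Psme3 lie in a pair at 43.7 to 46.6 and a pair at 84.4 to 89.3 CPM.

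The gene next upstream of Psme1 fell by a similar amount. Within 100 kb of the Psme1 start, a window chosen after the values were seen, 16 other genes were tested, of which 4 fell and 0 rose by edgeR, beside 9.64% lower over all genes. Fitm1, which encodes a lipid droplet protein of muscle, lies on the same strand and ends upstream of the Psme1 start (55575617 to 55576954). It measured 18.03 ± 3.11 CPM in cKO and 32.2 ± 3.23 CPM in control ventricles, 1.79-fold lower (log2 fold change -0.84 ± 0.12 SE, adjusted p = 0.000803). Dcaf11, Dhrs4 and the scarce Gmpr2 fell too, with log2 fold changes of -0.31, -0.27 and -0.92. Between Psme1 and Psme2 lies Emc9, a gene for an endoplasmic reticulum membrane complex subunit, whose end overlaps that of Psme1 on the other strand. Emc9 had a log2 fold change of -0.20 and did not pass (adjusted p = 0.196). Psme1 and Psme2 are 5911 bases apart.

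**Figure D3:**
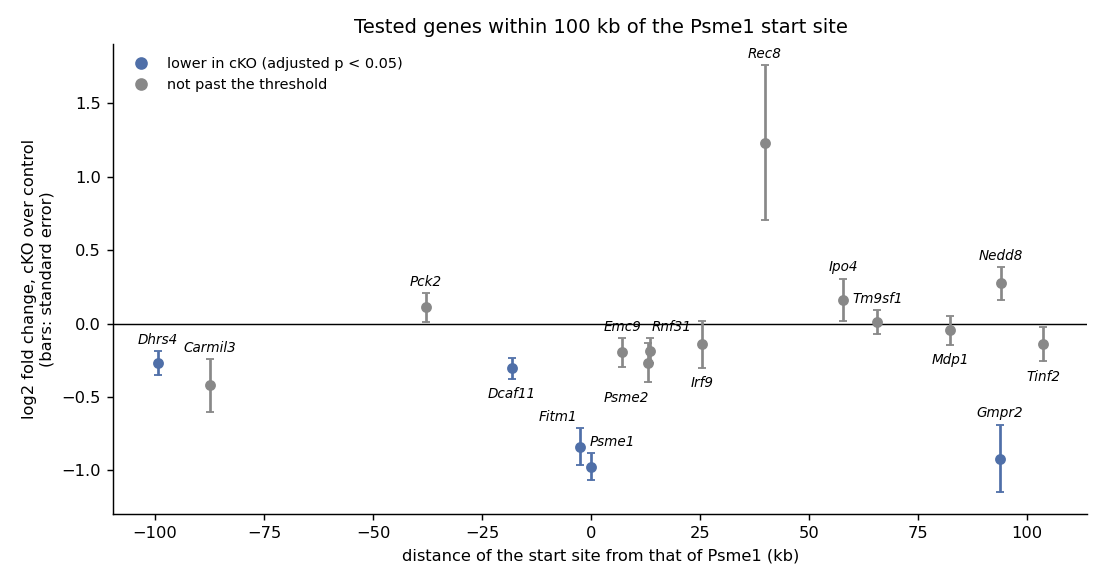
Log2 fold change (cKO over control, y axis, with the standard error) of the 17 tested genes whose body reaches within 100 kb of the Psme1 start, against the distance of their start sites in kb (x axis, positive in the direction of Psme1 transcription). The 3 lowest genes are Psme1 at -0.97, Gmpr2 at -0.92, which starts 93.8 kb away, and Fitm1 at -0.84, while Psme2 and Emc9 lie nearer 0.

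The lid and base of the regulatory particle were measured in 17 genes, of which 1 rose and 0 fell, or 5.88% called against 19.3% of all genes. The median log2 fold change of the 17 was 0.10, and 13 of them had a positive value (12 to 17 under 16 alternatives). Psmd8 encodes the lid subunit RPN12. It had 104, 99.2, 113 and 102 CPM in cKO libraries 1 to 4, against 75.9, 90.5, 82.1 and 91.2 CPM in control libraries 1 to 4. The groups did not overlap, and the gene was 1.23-fold higher (log2 fold change 0.30 ± 0.08 SE, adjusted p = 0.0241). The call rested on several libraries, since the adjusted p was 0.0639 without control library 1, 0.0511 without control library 3, 0.0619 without cKO library 1, 0.0684 without cKO library 3 and 0.106 in males only. Of 10 other tested genes within 100 kb of its start, 2 rose, Spred3 and 2200002D01Rik, both under 6 CPM, and 0 fell. Over all genes 9.64% were called higher and 9.64% lower.

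The other 7 lid genes did not pass, and all had positive log2 fold changes (without control library 1 that of Psmd12 was negative), from 0.04 for Psmd12 to 0.20 for Psmd7. Psmd7, the partner of the deubiquitinase, had 124 to 144 CPM in cKO and 106 to 125 CPM in control libraries (log2 fold change 0.20 ± 0.08 SE, adjusted p = 0.109). Psmd14, the deubiquitinase itself, measured 64.98 ± 2.76 CPM in cKO and 59.3 ± 8.79 CPM in control ventricles (adjusted p = 0.426). Psmd6 had 90.05 to 93.4 CPM in cKO and 68.8 to 89.3 CPM in control libraries, with every cKO library above every control, and did not pass either (log2 fold change 0.14 ± 0.09 SE, adjusted p = 0.311). Control library 1, at 68.8 CPM, was far below the other controls in Psmd6. The other 4 encode scaffold subunits of the lid, and in all 4 the groups overlapped. Psmd3 had 103 to 111 CPM in cKO and 92.8 to 109 CPM in control libraries. Psmd11, which helps hold the particle together, had 117 to 131 CPM in cKO and 105 to 125 CPM in control libraries. The widest range of the 4 was that of Psmd12 in controls, at 128 to 145 CPM in cKO and 115 to 153 CPM in control libraries. Psmd13 had 73.9 to 84.95 CPM in cKO and 66.1 to 84.5 CPM in control libraries. With total counts as the only scaling, Psmd7 passed (adjusted p = 0.0188).

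In the base, none of the 6 ATPase genes passed by edgeR, against 19.3% of all genes, nor by DESeq2 or limma-voom. Of the 6, 1 had an unadjusted p under 0.05. That was Psmc6, at 151 to 178 CPM in cKO and 121 to 154 CPM in control libraries (log2 fold change 0.22 ± 0.10 SE, adjusted p = 0.138). Psmc2, Psmc3, Psmc4 and Psmc5 had log2 fold changes between -0.02 and -0.0029, which turned positive with upper-quartile factors, with total counts only and without control library 4. The 95% interval of the fold was 0.885 to 1.13 for Psmc2, 0.884 to 1.10 for Psmc3, 0.884 to 1.11 for Psmc4 and 0.890 to 1.10 for Psmc5. Psmc1 measured 166 ± 8.68 CPM in cKO and 149 ± 14.98 CPM in control ventricles (log2 fold change 0.16 ± 0.09 SE, adjusted p = 0.224), and passed with total counts only (adjusted p = 0.0362). The base scaffold genes Psmd1 and Psmd2 and the ubiquitin receptor gene Psmd4 did not pass by any of the 3 tools, and 0 of them had an unadjusted p under 0.05. Psmd1 measured 219 ± 15.4 CPM in cKO and 205 ± 23.3 CPM in control ventricles (adjusted p = 0.527). Psmd2 measured 307 ± 15.4 CPM in cKO and 299 ± 27.1 CPM in control ventricles (adjusted p = 0.799).

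In the core particle, 0 of 14 constitutive subunit genes passed by edgeR, against 19.3% of all genes. Of the 14, 2 had an unadjusted p under 0.05, Psma5 and Psmb2. DESeq2 called Psma5 and limma-voom none. The median log2 fold change of the 14 was 0.01, and 7 were positive and 7 negative (6 to 10 positive under 16 alternatives). Psma5, of the alpha ring, had 30.6, 31.9, 34.5 and 38.3 CPM in cKO libraries 1 to 4, against 21.98, 29.9, 29.7 and 25.2 CPM in control libraries 1 to 4. All cKO libraries were above all controls, and the gene just missed the threshold (log2 fold change 0.34 ± 0.11 SE, adjusted p = 0.0583). It passed under 6 of 16 alternatives, without control library 3 among them (adjusted p = 0.0418). Psmb2, a beta subunit without a cutting site, had 52.5, 54.7, 49.9 and 53.6 CPM in cKO libraries 1 to 4, against 56.1, 54.97, 63.6 and 64.02 CPM in control libraries 1 to 4. Every cKO library was below every control (log2 fold change -0.18 ± 0.08 SE, adjusted p = 0.131).

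The 3 constitutive cutting subunits are encoded by Psmb5, Psmb6 and Psmb7, whose sites differ in the residues they cut after. Psmb5, with the chymotrypsin-like site, measured 33.04 ± 2.91 CPM in cKO and 37.1 ± 3.84 CPM in control ventricles (log2 fold change -0.17 ± 0.10 SE, adjusted p = 0.265). Psmb6, with the caspase-like site, measured 61.8 ± 6.24 CPM in cKO and 67.8 ± 2.39 CPM in control ventricles (log2 fold change -0.13 ± 0.08 SE, adjusted p = 0.312). Psmb7, with the trypsin-like site, measured 68.9 ± 4.38 CPM in cKO and 65.6 ± 8.85 CPM in control ventricles (log2 fold change 0.07 ± 0.10 SE, adjusted p = 0.672). In each of the 3 the groups overlapped. The remaining alpha genes Psma1, Psma2, Psma3, Psma4, Psma6 and Psma7 ranged from -0.15 to 0.17 in log2 fold change, and the beta genes Psmb1, Psmb3 and Psmb4 from -0.07 to 0.13.

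The remaining alpha genes form the gate and the docking surface for caps, and their groups overlapped. Psma1 had 81.5 to 95.5 CPM in cKO and 83.9 to 99.7 CPM in control libraries. Psma2 had 62.4 to 70.8 CPM in cKO and 53.6 to 72.96 CPM in control libraries. Psma3, whose tail is part of the gate, had 42.5 to 51.3 CPM in cKO and 34.05 to 47.9 CPM in control libraries. In each of these 3 genes some cKO libraries lay among the controls. Psma4 had 82.2 to 105 CPM in cKO and 75.8 to 91.6 CPM in control libraries. Psma6 had 97.4 to 105 CPM in cKO and 99.3 to 127 CPM in control libraries. Psma7 had 74.4 to 84.2 CPM in cKO and 67.2 to 81.4 CPM in control libraries. The beta genes Psmb1, Psmb3 and Psmb4 encode subunits without a cutting site. Psmb1 had 97.3 to 112 CPM in cKO and 84.7 to 105 CPM in control libraries. Psmb3 had 43.8 to 49.2 CPM in cKO and 41.3 to 51.9 CPM in control libraries, and Psmb4 had 81.1 to 90.8 CPM in cKO and 82.4 to 93.4 CPM in control libraries. None of these 9 genes had an unadjusted p under 0.05.

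Psma8, the alpha subunit of the testis proteasome, was scarce in ventricle, with 13 to 22 counts per cKO library and 4 to 10 per control library. It had 0.580, 0.967, 0.514 and 0.774 CPM in cKO libraries 1 to 4, against 0.317, 0.490, 0.168 and 0.314 CPM in control libraries 1 to 4. All cKO values were above all controls, and the gene did not pass (log2 fold change 1.13 ± 0.39 SE, adjusted p = 0.0668), except with sex as a covariate (adjusted p = 0.0471). Psmb11, the beta subunit of the thymus proteasome, had 0 to 2 counts per library in both genotypes and was not tested.

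None of the 3 immunoproteasome genes passed by edgeR, against 19.3% of all genes, nor by DESeq2 or limma-voom. Psmb8 alone of the 3 had an unadjusted p under 0.05, as had 31.5% of all genes. The intervals of the 3 genes reach no higher than 1.21-fold, that of Psmb10. Psmb8, the inducible counterpart of Psmb5, had 7.66, 6.77, 7.004 and 7.74 CPM in cKO libraries 1 to 4, against 8.11, 13.1, 6.61 and 11.8 CPM in control libraries 1 to 4. Controls 2 and 4 were high, and controls 1 and 3 lay at the level of the cKO libraries (log2 fold change -0.44 ± 0.20 SE, adjusted p = 0.155; interval of the fold 0.545 to 0.997). Psmb8 passed as lower without control library 3 (log2 fold change -0.60, adjusted p = 0.0301), and had log2 fold changes of -0.28 and -0.35 without control library 2 or 4.

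Psmb9, the counterpart of Psmb6, had 4.84, 4.57, 4.08 and 5.97 CPM in cKO libraries 1 to 4, against 4.44, 7.45, 6.10 and 8.94 CPM in control libraries 1 to 4. The groups overlapped (log2 fold change -0.47 ± 0.21 SE, adjusted p = 0.16; interval 0.524 to 1.001), and the gene passed without control library 1 (log2 fold change -0.62, adjusted p = 0.0483). Without control library 4 its log2 fold change was -0.30 (adjusted p = 0.369). Psmb9 overlaps Tap1 on the other strand, and the strand setting of the counting is not given in the sources used here, so their reads may be shared. Psmb10, the counterpart of Psmb7, had 22.6, 23.3, 27.98 and 27.7 CPM in cKO libraries 1 to 4, against 20.3, 26.4, 24.97 and 29.8 CPM in control libraries 1 to 4. Its means differed by less than the spread between libraries (25.4 ± 2.86 CPM in cKO and 25.4 ± 3.93 in control; adjusted p = 0.994), with an interval of the fold of 0.832 to 1.21.

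Ratios within a library do not depend on its scaling. Per kb of exon, Psmb8 stood to Psmb5 at 0.0626, 0.0556, 0.0618 and 0.0555 in cKO libraries 1 to 4 and at 0.0623, 0.0963, 0.0505 and 0.0735 in control libraries. Psmb9 stood to Psmb6 at 0.0470, 0.0357, 0.0332 and 0.0462 in cKO and at 0.0349, 0.0570, 0.0442 and 0.0668 in control libraries. The third pair, Psmb10 to Psmb7, stood at 0.717, 0.651, 0.828 and 0.764 in cKO and at 0.729, 0.812, 0.787 and 0.774 in control libraries. All 3 ratios overlapped between genotypes, and the highest value of the first 2 pairs was 0.0963.

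**Figure D4:**
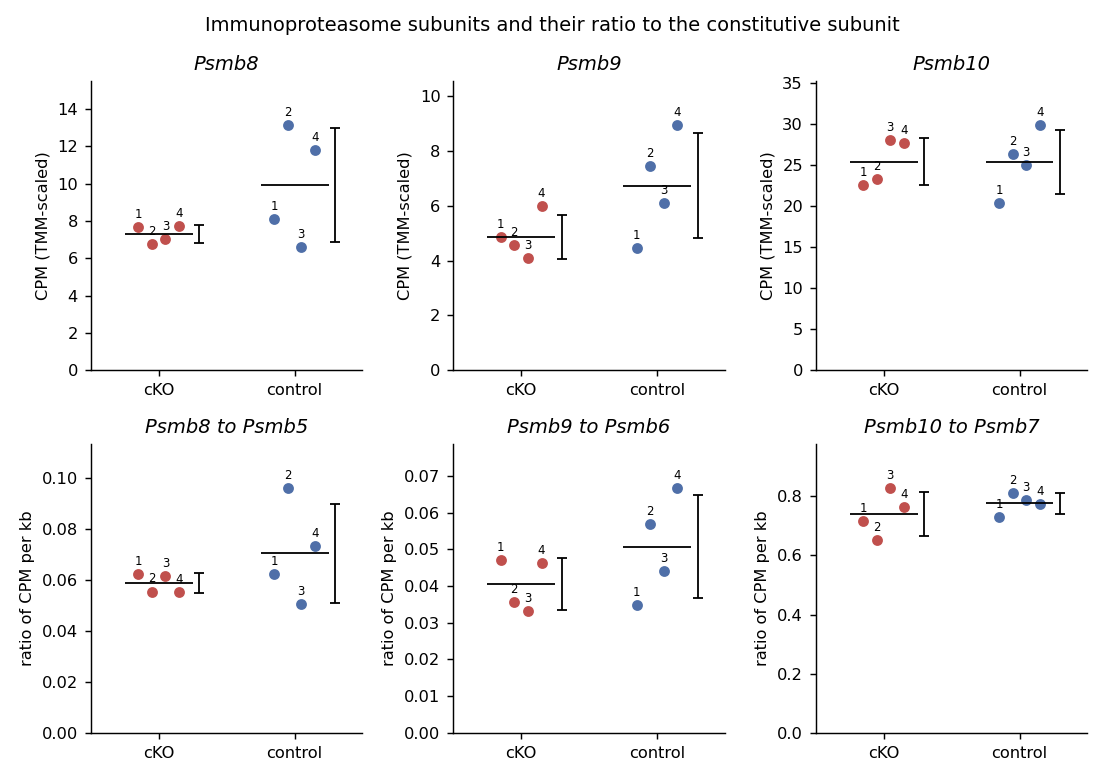
Upper row: CPM (y axis, TMM-scaled) of the 3 immunoproteasome genes in 4 cKO (red, left) and 4 control (blue, right) libraries, numbered 1 to 4. Lower row: ratio of each to its constitutive counterpart, in CPM per kb of exon; lines are means and bars the SD, and the groups overlap in all 6 panels.

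Beside these, 11 genes of interferon signalling and peptide loading were measured. By edgeR 3 fell and 0 rose, or 27.3% called against 19.3% of all genes. Of the 11, 5 had an unadjusted p under 0.05, a mark that 31.5% of all genes reached. The median log2 fold change of the 11 was -0.26. Tap2, a subunit of the peptide transporter, measured 17.9 ± 2.003 CPM in cKO and 22.9 ± 2.04 CPM in control ventricles (log2 fold change -0.35 ± 0.10 SE, adjusted p = 0.0362). Erap1, which trims peptides, measured 64.02 ± 3.14 CPM in cKO and 79.6 ± 10.7 CPM in control ventricles (log2 fold change -0.31 ± 0.10 SE, adjusted p = 0.0401). Both Tap2 and Erap1 lost their call without control library 2 or 4 and without cKO library 1, 2 or 3, and Erap1 also without cKO library 4. With total counts only, the adjusted p was 0.128 for Tap2 and 0.147 for Erap1, the highest of their 16 alternatives. Tap2 also missed the threshold in males only (0.0619) and Erap1 with upper-quartile factors (0.0523). Tap1 had 11.7, 10.8, 10.6 and 14.1 CPM in cKO libraries 1 to 4, against 12.8, 23.7, 11.8 and 21.1 CPM in control libraries 1 to 4 (log2 fold change -0.55 ± 0.21 SE, adjusted p = 0.0945). Controls 2 and 4 were its highest libraries, as for Psmb8.

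The 5 genes whose log2 CPM followed Psmb8 most closely over the 8 libraries, members of the family left out, were Tap1 (Pearson r = 0.97), H2-K1 (0.96), Gm12250 (0.95), H2-Q4 (0.95) and Irgm1 (0.95). These are descriptions over 8 libraries that share their genotype groups. Leukocyte markers summed to 207 to 237 CPM in cKO and 128 to 210.2 CPM in control libraries. The largest parts of this sum were Lyz2 (93.4 ± 7.12 CPM in cKO and 65.2 ± 13.6 in control) and Csf1r (59.4 ± 7.54 in cKO and 49.5 ± 9.88 in control). Log2 fold changes were positive for 7 of the 10 tested and negative for 3, with Cd52 lowest at -0.55. Of 10 tested 1 rose, Lyz2 (adjusted p = 0.0151, and 0.0547 in males only), beside 9.64% higher over all genes. Ptprc, carried by all leukocytes, measured 10.5 ± 1.38 CPM in cKO and 11.2 ± 4.13 CPM in control ventricles (adjusted p = 0.815). Nkg7 and S100a8 were too low to be tested. The part of leukocytes in the immunoproteasome levels was not tested.

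The Psmg and Psmd assembly chaperones, which help subunits join in order, gave no call by edgeR, against 19.3% of all genes called. Among the 4 chaperones of core assembly, 0 passed by edgeR or limma-voom and 1 by DESeq2, Psmg1, which also had the only unadjusted p under 0.05. Psmg1 had 10.1, 11.2, 11.4 and 11.9 CPM in cKO libraries 1 to 4, against 13.2, 14.6, 14.02 and 13.2 CPM in control libraries 1 to 4. The cKO libraries were all below the controls (log2 fold change -0.30 ± 0.10 SE, adjusted p = 0.0546; DESeq2 adjusted p = 0.0427). Psmg2, the partner of Psmg1 in assembling the alpha ring, measured 21.7 ± 1.28 CPM in cKO and 21.99 ± 1.43 CPM in control ventricles. Both other genes of the set were scarce. Psmg3 measured 2.19 ± 0.541 CPM in cKO and 1.94 ± 0.272 CPM in control ventricles. Psmg4, its partner, measured 3.46 ± 0.906 CPM in cKO and 4.40 ± 1.23 CPM in control ventricles. The chaperones of base assembly, Psmd5, Psmd9 and Psmd10, had log2 fold changes of 0.08, -0.06 and 0.04. None of the 3 passed by any of the 3 tools, and 0 had an unadjusted p under 0.05.

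Also matched by the symbol rule are Psmc3ip, whose product binds an ATPase subunit and is known for its part in meiotic recombination, and Psme2b, a copy of Psme2. Psmc3ip measured 2.31 ± 0.227 CPM in cKO and 2.58 ± 0.728 CPM in control ventricles (adjusted p = 0.69) and overlaps Mlx on the other strand. Psme2b measured 1.11 ± 0.333 CPM in cKO and 1.39 ± 0.381 CPM in control ventricles (adjusted p = 0.539). It overlaps 9930111J21Rik1 (mean 1.34 CPM over the libraries) and Gm12185 (1.57 CPM) on the same strand. The reads of Psme2b may be split with these 2 genes and with Psme2.

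Levels per kb of exon differed more between roles than between genotypes. Subunits enter the core and regulatory particles in fixed proportions. Their messages ranged from 11.7 to 85.95 CPM per kb in cKO and from 10.4 to 91.5 in control ventricles over 31 genes. Exon lengths are those of all annotated transcripts joined, so a gene with long rare exons is set too low. Psma6 was the highest of the alpha ring, at 82.2 in cKO and 91.5 in control, and Psma3 the lowest but for Psma8, at 11.7 in cKO and 10.4 in control. In the beta ring Psmb2 was highest, at 43.7 in cKO and 49.6 in control. Psmb3 and Psmb7 were the lowest there, at 19.9 in cKO and 20.6 in control for Psmb3 and 20.1 in cKO and 19.2 in control for Psmb7, and these neighbours do not differ beyond their spread. Among the ATPase genes Psmc1 was highest (85.95 in cKO and 76.9 in control) and Psmc2 lowest (21.6 in cKO and 21.7 in control). Psmd2 was the highest of the base scaffold genes (75.97 in cKO and 73.95 in control) and Psmd1 the lowest (30.1 in cKO and 28.2 in control). In the lid, Psmd7 and Psmd12 led (58.2 in cKO and 50.7 in control for Psmd7, 51.8 in cKO and 50.5 in control for Psmd12), and Psmd11 was lowest (19.1 in cKO and 17.6 in control).

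Chaperones, the inhibitor and the inducible subunits were lower than most subunits. Psmd10 led the base chaperones (7.89 in cKO and 7.67 in control CPM per kb) and Psmd9 was their lowest (2.53 in cKO and 2.65 in control). Psmg2 led the core chaperones (12.5 in cKO and 12.7 in control) and Psmg3 was their lowest (0.758 in cKO and 0.669 in control). The inhibitor Psmf1 stood at 3.89 in cKO and 4.56 in control. Of the immunoproteasome genes, Psmb10 was highest (14.9 in cKO and 14.9 in control) and Psmb9 lowest (1.33 in cKO and 1.84 in control). Psme4 was the highest activator (75.6 in cKO and 87.05 in control) and Psme2 the lowest (12.4 in cKO and 14.9 in control). Between them lay Psme1, at 26.5 in cKO and 52.1 in control, and Psme3, at 22.4 in cKO and 31.8 in control. In cKO these 2 do not differ beyond their spread, and the ratio of Psme1 to Psme3 was 1.67, 1.75, 0.774 and 1.07 in cKO libraries 1 to 4 and 1.48 to 1.80 in control libraries.

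**Figure D5:**
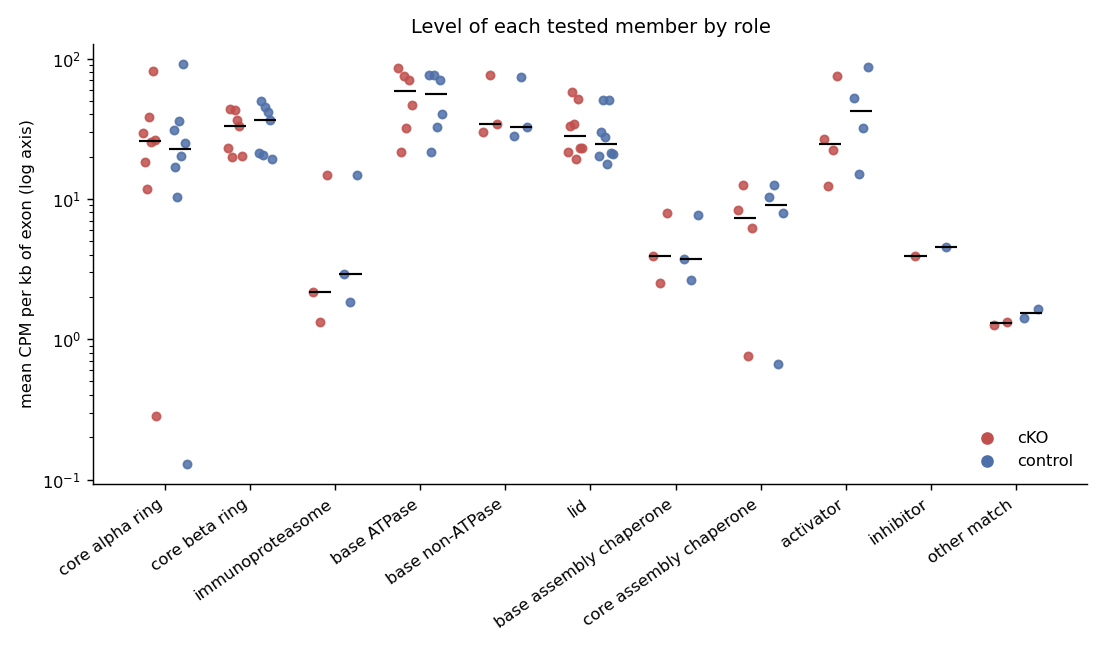
Mean CPM per kb of exon (y axis, log scale) of the 49 tested genes by role, in cKO (red, left) and control (blue, right) ventricles, with 1 point per gene and the median of each role as a line. Core and regulatory subunits lie mostly between 10 and 100, and the median of the 4 activators is 24.5 in cKO and 41.98 in control.

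Genes that work with the proteasome were measured as 2 lists. Of 24 partners and substrate shuttles 23 have a row and were tested, and 2 rose and 1 fell, or 13.04% against 19.3% of all genes, with a median log2 fold change of 0.02. AI314180, the gene now named Ecpas, whose product binds the proteasome as a scaffold, had 309, 311, 300.5 and 248 CPM in cKO libraries 1 to 4, against 385, 371, 377 and 405 CPM in control libraries 1 to 4. All cKO libraries were below all controls (log2 fold change -0.40 ± 0.09 SE, adjusted p = 0.00731), and the gene passed under all 16 alternatives. Pomp, the maturation protein of the core, had 80.2, 85, 83.3 and 86.3 CPM in cKO libraries 1 to 4, against 56.6, 73.97, 68.04 and 70.6 CPM in control libraries 1 to 4. All cKO libraries were above all controls. The gene rose (log2 fold change 0.31 ± 0.09 SE, adjusted p = 0.0259), and missed the threshold in males only and without control library 1 or any 1 cKO library, with adjusted p of up to 0.0642. Nfe2l1 encodes the transcription factor that raises proteasome genes when proteasome activity falls. It had 863, 942, 1025 and 818 CPM in cKO libraries 1 to 4, against 719.8, 712, 774 and 788 CPM in control libraries 1 to 4, without overlap. It rose (log2 fold change 0.29 ± 0.09 SE, adjusted p = 0.0423). The call was lost under 9 of 16 alternatives, with adjusted p of up to 0.152 in males only. Its activators Ddi2 and Ngly1 missed the threshold, at log2 fold changes of -0.11 and 0.14. The ubiquitin receptor gene Adrm1 (adjusted p = 0.992) and the deubiquitinase gene Usp14 (adjusted p = 0.893) missed it too.

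Of 12 genes for ubiquitin, its activating enzymes and conjugating enzymes, 1 fell and 0 rose by edgeR, DESeq2 and limma-voom. By edgeR that is 8.33% called, against 19.3% of all genes. The median log2 fold change of the 12 was -0.14. Ube2d1, a conjugating enzyme, had 41.4, 44.96, 39.3 and 47.3 CPM in cKO libraries 1 to 4, against 62.3, 65.5, 53.9 and 66.8 CPM in control libraries 1 to 4. Every cKO library was below every control (log2 fold change -0.52 ± 0.09 SE, adjusted p = 0.00205), and the gene passed under all 16 alternatives. The polyubiquitin gene Ubb measured 157 ± 10.7 CPM in cKO and 156 ± 16.3 CPM in control ventricles (adjusted p = 0.966). The main activating enzyme, Uba1, measured 295 ± 3.12 CPM in cKO and 328 ± 38.7 CPM in control ventricles (adjusted p = 0.272).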

How the data were processed

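Whole-number counts per gene were deposited by the authors, 1 column for each of 8 libraries. Per the submitters' processing notes, edgeR 3.30.3, featureCounts 1.6.0, HISAT2 2.0.4 and FastQC 0.11.4 were in use, with mm10 and GRCm38 as builds, no step being assigned. Libraries were stranded, per the labels' protocols; the strand setting of the counting and its annotation were not stated, so overlapping genes and close copies are uncertain. Of 54132 rows, 24 with a number for a symbol were left out (0.115% to 0.132% of counts).

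Counts were tested with edgeR 4.0.16 in R 4.3.3 (quasi-likelihood, genotype as the only term, TMM, filterByExpr, two-sided). Standard errors are the log2 fold change over the square root of F. On simulated counts of 16051 genes for cKO against control, 58.2% of 1.5-fold, 82.1% of 2-fold and 97% of 4-fold changes were recovered, with 9 false calls. Only 67, 67 and 66 genes were changed at these folds, far fewer than were called in the data. Alternatives were 3 other scalings, no filter, DESeq2 1.42.0, limma-voom (limma 3.58.1), sex as a covariate, males only and each library left out. Libraries of 1 genotype differed by a chi-square per degree of freedom of 7.09 to 31.2, so none was counted as a duplicate. Positions and exon lengths are from GENCODE M21 (GRCm38), which holds all 50 genes, and promoters from RefSeq.

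Genes and lists were chosen with earlier results of these data known. Genes named are those called, the catalytic and inducible subunits, and in each role the smallest adjusted p and the highest and lowest level per kb; from each list those called, or else the smallest adjusted p. Others, such as neighbours of called genes, were chosen after their values were seen. Some genes that the rule takes are left out of the text.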

Additional observations from a re-analysis of the deposited data

Results flagged for a closer look

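In 50 genes, the 49 tested members and Rbpms, the 4 libraries of each genotype were searched for a library whose gap to the next was most of the group's range by Dixon's test at the 95% level. Of 100 groups 2 were found, and chance gives about 1 in 20. Psmd6 in control library 1 was at 68.8 CPM, and the next control at 88.1. Psmf1 in control library 1 was at 28.9 CPM, against 29.5 for the next control, a gap of less than 1 CPM.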

How the results depend on the processing

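No paired analysis was possible because the labels give the libraries of the 2 genotypes no shared numbers. Under 16 alternatives, Psme1 and Rbpms kept their call. The number of family genes called higher was 1, and it was 2 with upper-quartile factors, no filter and DESeq2, 3 with sex as a covariate, 4 with total counts only and 0 in males only. The number called lower was 1, and it was 2 with no filter and in males only and 3 with DESeq2. Leaving out 1 library gave 0 to 1 higher and 1 to 2 lower. Over all genes, total counts gave 1021 lower, and leaving out 1 library gave 1129 to 1458 higher and 1093 to 1418 lower. The log2 fold change of Rbpms was -2.50 to -2.22 with 1 library left out. Of the 49 genes, 15 changed the sign of their log2 fold change under at least 1 alternative, the largest of them 0.18 in size as reported (Psmg3), and Psme1 and Psmd8 are not among the 15. The cause of these moves was not tested. At 4 libraries per genotype 58.2% of 1.5-fold changes over all genes tested were recovered on simulated counts, so changes of that size and smaller can be missed. The simulation changed far fewer genes than were called in the data. The median standard error of the log2 fold change was 0.0907 for the tested members and 0.135 for all genes. A share for the members alone was not computed, and 58.2% need not hold for them.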
